A study of Macaca fascicularis with 132 samples.

Results

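Peripheral blood mononuclear cells (PBMCs) of cynomolgus macaques (Macaca fascicularis) that had been kept without added cytokine for 48 h were compared with those kept for 24 h. The comparison uses 24 libraries, chosen by their labelled treatment and time: 12 control libraries at 48 h and 12 at 24 h. Each side holds 3 libraries from each of 4 animals, 2 females (38142 and 38155) and 2 males (38147 and 38157). The counts of the 3 libraries were summed, which left 4 pairs, or 8 of the 44 sums that the whole series gives. The labels of the control cultures give a dose of 0 ng/ml. Cultures of the same animals with IL-15/IL-15Ra, the heterodimer of IL-15 and its receptor alpha chain (40 ng/ml), at 48 h and 24 h, and control cultures at 12 h and at 0 h, are used to place the values. Every group is ex vivo material of these 4 animals. Nothing in the labels says whether the 3 libraries are separate cultures.

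PBMCs are a mixture of T cells, B cells, natural killer cells, monocytes and a few dendritic cells. In culture, monocytes attach and turn towards macrophages, while lymphocytes that receive no survival cytokine slowly lose viability. IL-15 is such a survival cytokine for natural killer cells and memory CD8+ T cells, and its receptor alpha chain presents it to them. These processes are background here. The gene IDs of the count tables are paired with no symbol in the tables used, so no cell type marker, pathway or labelled cell type could be looked up, and genes are described by their values, times and direction.

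The 48 h libraries held 19218137 to 40469176 counts (median 25956856) and the 24 h libraries 18978031 to 31774749 (median 26908591). Genes with at least 1 count numbered 16834 to 20352 per library at 48 h and 18446 to 21115 at 24 h. Over the whole series, 3 libraries stood apart from the sister libraries of the same animal and group, by a root mean square (RMS) log2 distance to the nearest sister of over 0.413 (median of all libraries 0.213). Among the 24 libraries compared, 1 was of this kind: library 1 of animal 38142 at 48 h, with a distance of 0.950 and the lowest number of genes detected, 16834. The other 2 are an IL-15 library at 24 h (animal 38147, library 2; 0.432) and a control library at 2 h (animal 38157, library 3; 0.499). The main counts are given with and without them.

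In the second day of control culture a small share of genes changed, in both directions. Of 18197 genes tested with edgeR's quasi-likelihood test, with the animal as a term and a Benjamini-Hochberg adjusted p under 0.05, 676 were called, which is 3.71% of the genes tested. At 48 h 386 genes were higher (2.12%) and 290 were lower (1.59%) than at 24 h. The median fold change was 1.82 for genes that rose and 1.88 for genes that fell. Without the 3 libraries that stood apart, 700 genes were called, 418 higher and 282 lower, and these held 332 of the 386 genes (86.01%) and 225 of the 290 (77.6%). The split moved with the filter: with at least 5 CPM required in 4 or more sums, 307 genes rose and 353 fell. Without the animal term edgeR called 42 genes. In bulk RNA, fewer cells of a type and less RNA per cell cannot be told apart, so a fall of a gene can be either.

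Most changes were small and a minority was large. Of the 386 genes that rose, 167 changed at least 2-fold and 65 at least 4-fold. Of the 290 that fell, 92 changed 2 to 4-fold and 31 by more. Calls were more frequent at higher levels. Of 4014 genes whose mean over both times reached 50 CPM (counts scaled to the TMM-normalized total of a sum), 5.43% were called. Of 5504 genes under 1 CPM, 1.65% were called, 43 higher and 48 lower. The median log2 fold change of all genes tested was 0.01.

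**Figure D1:**
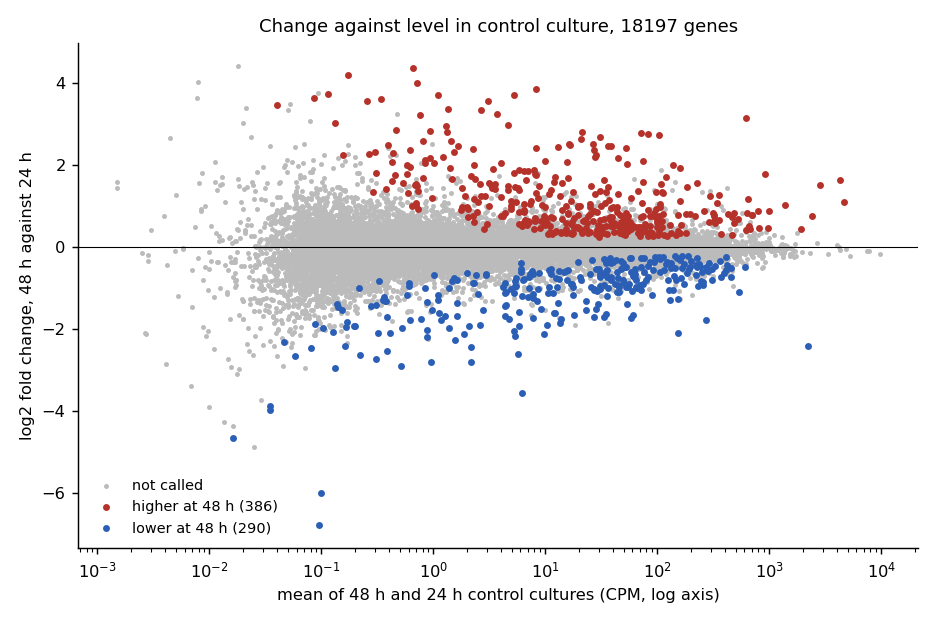
Log2 fold change of control culture at 48 h against 24 h (vertical axis) by mean level over both times (horizontal axis, CPM, log scale) for 18197 genes. Red points are the 386 genes called higher at 48 h, blue points the 290 called lower and grey points the rest, which centre on 0.01 at the median.

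The 4 animals moved the same way for most called genes. All 4 had the direction of the call in 375 of the 386 genes that rose and 280 of the 290 that fell, against 25.1% of all genes tested. That agreement is partly built into the call. The 4 sums at 48 h lay wholly above or below the 4 at 24 h in 135 genes that rose (34.97%) and 96 that fell (33.1%), against 3.82% of all genes tested. Groups therefore overlapped in most called genes, since the animals differed in level and shared the direction.

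Genes were also called in 3 animals and their direction read in the animal left out, whose values had no part in the call. Without animal 38142, 188 genes were called, and 95.7% of them had the same direction in 38142 as in the other 3. Of 226 genes called without 38147, 99.1% had that direction in 38147. The share was 85.8% for 38155 (522 genes) and 92.8% for 38157 (599 genes), over the called genes that were also tested with all 4 animals. Among genes that were not called, the share was 54.4% to 64.5%. The number of calls depended on the first 2 animals: it fell to 188 without 38142 and to 226 without 38147, against 676 with all 4.

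The size of the change varied between animals. Over 10243 genes with at least 5 CPM, the RMS log2 change was 0.451 in animal 38142, 0.442 in 38147, 0.441 in 38155 and 0.328 in 38157. The value of 38142 was 0.397 without the library that stood apart, so that 38157 had the smallest change with or without it. The genes that rose had a median log2 change of 0.75 in 38142, 1.11 in 38147, 0.75 in 38155 and 0.67 in 38157. The genes that fell had -1.02, -1.10, -0.69 and -0.65 in the same animals. Between females and males, 0 genes differed by limma on the 4 paired differences (348 at an unadjusted p under 0.05) and 0 by edgeR's interaction of sex and time (350 unadjusted), with 2 animals of each sex.

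The columns of the count table bear marks of unknown meaning, made of a Lib and a GL part, which were unevenly spread over both times. Lib1_GL75 marked 6 libraries at 48 h and 3 at 24 h, and Lib2_GL75 marked 1 at 48 h and 3 at 24 h. Animals 38147 and 38155 each had libraries of both times under the same mark. In 38142 and 38157 no mark was shared between 48 h and 24 h, so that mark and time cannot be told apart within these 2 animals. Genes called in the other 3 animals had their direction in 100% (Lib1_GL75) and 96.02% (Lib2_GL75) of cases within such a mark in 38147. In 38155 the share was 82.95% (Lib1_GL67) and 85.1% (Lib1_GL75). These shares were close to those over all libraries of each animal, while genes not called had 55.5% to 67.01%.

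By summed level, few genes carried much of the change. The 386 genes that rose together held 60729, 90796, 41128 and 49600 CPM at 48 h in animals 38142, 38147, 38155 and 38157, against 35716, 36838, 22037 and 29869 CPM at 24 h. Their mean was 60563 ± 21695 CPM at 48 h and 31115 ± 6779 CPM at 24 h (SD, n = 4 animals). The 290 genes that fell held 15035, 15870, 14039 and 16899 CPM at 48 h, against 28645, 29845, 19722 and 31430 CPM at 24 h. Both groups moved in each animal, as they were chosen to. The sum of the genes that fell was 15461 ± 1217 CPM at 48 h and 27410 ± 5251 CPM at 24 h. Its wider spread at 24 h came with animal 38155, which lay below the others at 19722 CPM. The genes were chosen from these same values, and a difference in spread was not tested. Of the summed rise, 7 genes held 50%, and of the summed fall, 16 genes.

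**Figure D2:**
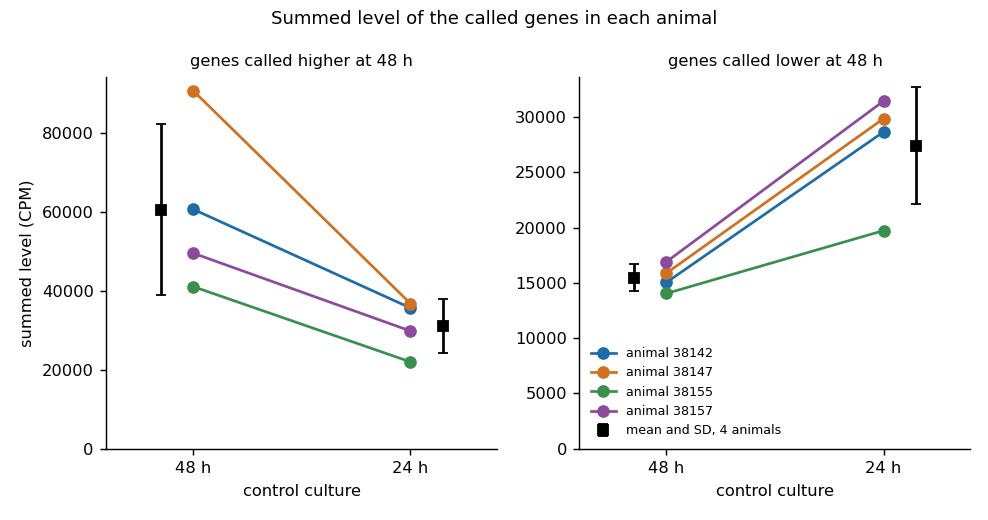
Summed level (CPM) of the genes called higher (left) and lower (right) in each of the 4 animals, at 48 h and 24 h of control culture. Lines join the sums of 1 animal, and squares with bars are the mean and SD: 60563 ± 21695 at 48 h and 31115 ± 6779 CPM at 24 h on the left, 15461 ± 1217 at 48 h and 27410 ± 5251 CPM at 24 h on the right.

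The gene with the largest rise in CPM stood at 8210, 10612, 2659 and 4744 CPM in animals 38142, 38147, 38155 and 38157 at 48 h, against 2674, 2868, 903 and 1831 CPM at 24 h. At 0 h its mean was 30.96 ± 19.7 CPM (SD, n = 4), and at 12 h it was 435 ± 205 CPM. Its log2 fold change at 48 h against 24 h was 1.64 ± 0.38 (SE; edgeR adjusted p = 0.0083). With IL-15 its mean was 1891 ± 1461 CPM at 48 h and 876 ± 528 CPM at 24 h, and the IL-15 step did not pass the test (log2 1.05, edgeR adjusted p = 0.056). The steps without and with IL-15 were not shown to differ (edgeR adjusted p = 0.68).

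The gene with the largest fall in CPM was uneven between animals. It stood at 288, 368, 72.6 and 2217 CPM in animals 38142, 38147, 38155 and 38157 at 48 h, against 2037, 2064, 340 and 10268 CPM at 24 h. Animal 38157 was far above the others at both times. The fall was -2.43 ± 0.68 on the log2 scale (SE; edgeR adjusted p = 0.036). At 0 h it stood at 759, 1071, 384 and 2297 CPM in the same animals, lower than at 24 h in 3 of them and higher in 38155. With IL-15 its step did not pass the test (log2 -1.17, edgeR adjusted p = 0.25). For this gene, too, the steps without and with IL-15 were not shown to differ (edgeR adjusted p = 0.59).

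By the rule for genes that are named, which asked for at least 5 CPM at one of both times, a call and the same direction in 4 of 4 animals, 300 genes that rose and 210 that fell were eligible, and the 2 with the largest change each way are given here. The files do not pair these IDs with a symbol, and none is given a name or a role.

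ENSMFAG00000037627 stood at 23.1, 17.3, 16.5 and 5.09 CPM in animals 38142, 38147, 38155 and 38157 at 48 h, against 1.78, 0.640, 1.31 and 0.430 CPM at 24 h. The 4 values at 48 h lay above the 4 at 24 h without overlap. The rise at 48 h against 24 h was 3.85 ± 0.66 on the log2 scale (SE; edgeR adjusted p = 0.00041). The rise had begun between 12 h and 24 h (log2 3.68, edgeR adjusted p = 0.0045), a step that shares the 24 h sums. It rose with IL-15 as well, by 3.63 on the log2 scale (edgeR adjusted p = 0.00068), to a lower level of 2.79 ± 2.24 CPM at 48 h.

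ENSMFAG00000032093 stood at 7.67, 18.4, 7.09 and 5.54 CPM at 48 h in the same order of animals, against 0.529, 1.22, 0.899 and 0.250 CPM at 24 h. It had 0 counts at 0 h and 2 h in all 4 control sums, 1 count at 6 h and 4 counts at 12 h. The gene therefore appeared during the first day and was still rising in the second, by 3.72 ± 0.37 on the log2 scale (SE; edgeR adjusted p = 1.8e-06). With IL-15 it reached 2.16 ± 0.94 CPM at 48 h, against 0.358 ± 0.115 CPM at 24 h, a log2 step of 2.56. The difference between the steps without and with IL-15 did not pass the test (log2 1.16 ± 0.50, SE; edgeR adjusted p = 0.27).

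ENSMFAG00000060090 stood at 0.997, 0.332, 1.30 and 0.388 CPM at 48 h, against 21.96, 6.23, 4.53 and 14.3 CPM at 24 h. Its mean was 8.38 ± 1.44 CPM at 0 h and 15.4 ± 10.2 CPM at 12 h (SD, n = 4), and 24 h was not shown to differ from 0 h (edgeR adjusted p = 0.77). The fall at 48 h was -3.56 ± 0.46 on the log2 scale (SE; edgeR adjusted p = 1.4e-05), whereas the step between 12 h and 24 h was -0.39 (edgeR adjusted p = 0.65). The difference of these steps, which share the 24 h sums, had an edgeR adjusted p of 0.06. With IL-15 the fall was -3.88 (edgeR adjusted p = 3.3e-07).

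ENSMFAG00000041687 stood at 0.811, 1.65, 0.537 and 2.12 CPM at 48 h, against 9.87, 24.4, 3.90 and 2.16 CPM at 24 h. Unlike the gene before it, it had fallen earlier in culture as well, with a mean of 608 ± 348 CPM at 0 h and 139.0 ± 114.3 CPM at 12 h. Its log2 change at 48 h against 24 h was -2.62 ± 0.39 (SE; edgeR adjusted p = 7.5e-05). In animal 38157 it was already low at 24 h and changed by -0.03 on the log2 scale in the second day, so that the highest value at 48 h lay just below the lowest at 24 h. The call was lost when only the 8 sums were fitted (edgeR adjusted p = 0.17) and without the animal term (edgeR adjusted p = 0.08).

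**Figure D3:**
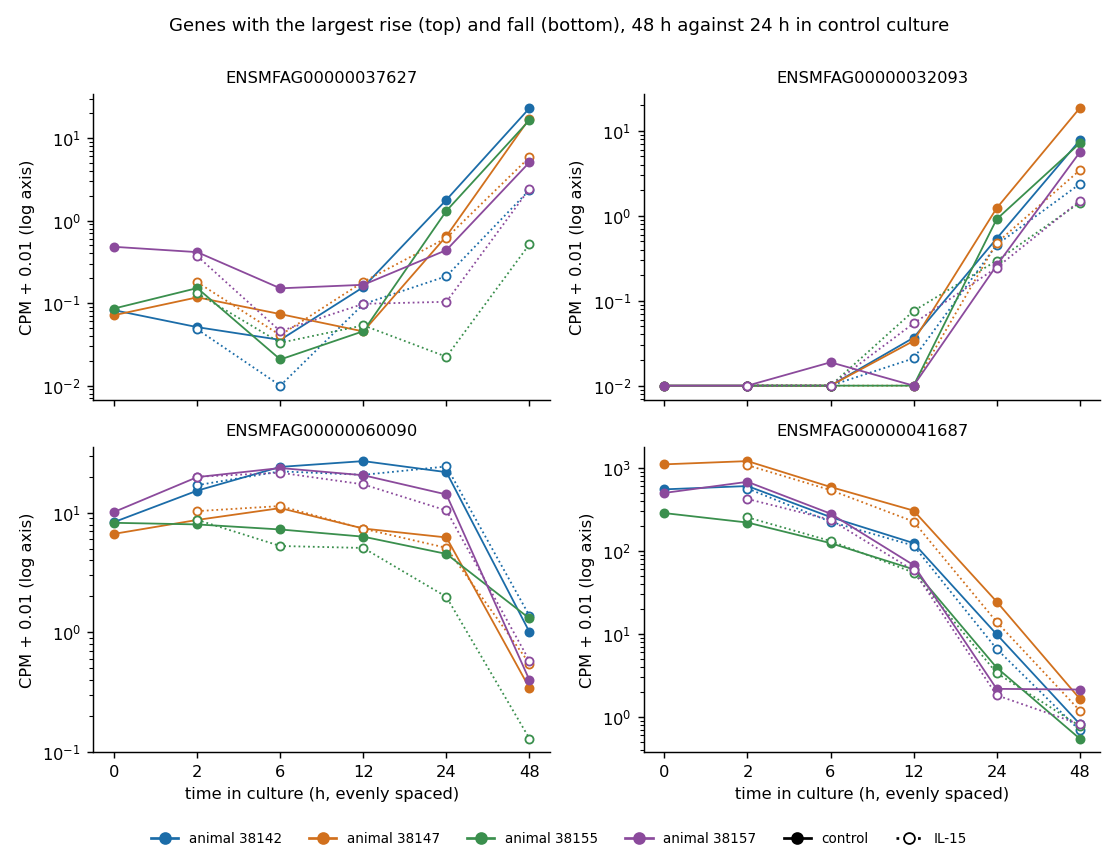
Level (CPM + 0.01, log axis) of the 4 named genes over time in culture (h, evenly spaced), 1 line for each animal, with filled points and solid lines for control and open points and dotted lines for IL-15. The upper genes reach 5.09 to 23.1 and 5.54 to 18.4 CPM at 48 h in control culture; the lower left gene drops after 24 h and the lower right gene is at 608 ± 348 CPM at 0 h and 1.28 ± 0.73 CPM at 48 h.

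Placed on the whole course, the 2 groups of called genes had different histories. The genes that rose had a median level of 8.71 CPM at the start (0 h), 9.37 CPM at 12 h, 14.5 CPM at 24 h and 27 CPM at 48 h. Those that fell had a median of 56.8 CPM at the start, 42.4 CPM at 12 h, 32.4 CPM at 24 h and 14.3 CPM at 48 h. The median over all genes tested was 7.33 CPM at 0 h and 8.51 at 48 h. By medians, genes that fell thus started at a higher level than all genes tested. At 2 h the median log2 level relative to 0 h was about the same in genes that fell (-0.14), genes that rose (-0.12) and all genes tested (-0.12). At 12 h it was -0.44 in genes that fell and 0.00 in genes that rose, or -0.31 and -0.06 without the libraries that stood apart.

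**Figure D4:**
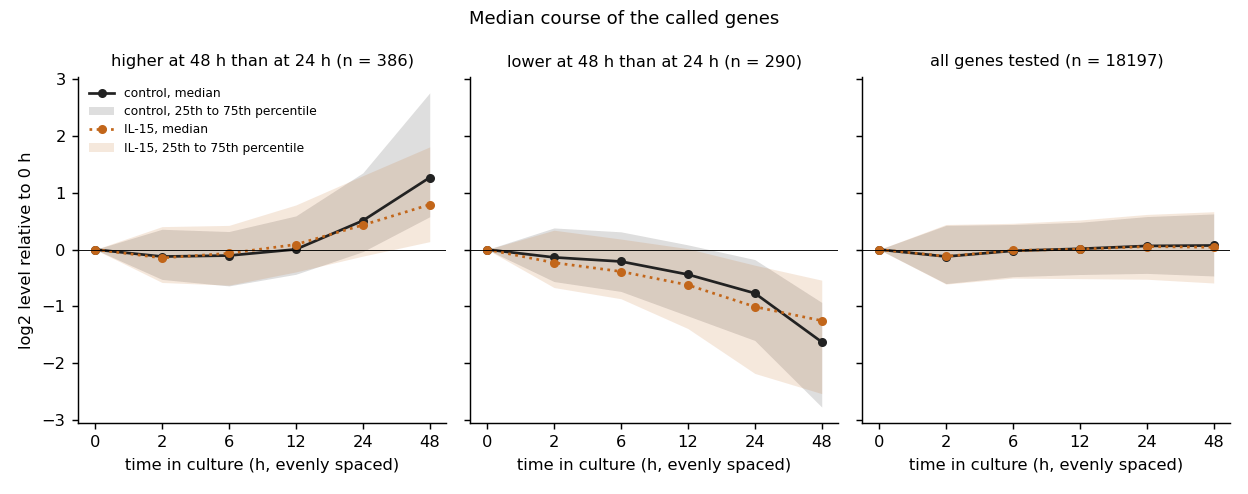
Median log2 level relative to 0 h over time in culture (h, evenly spaced) for the 386 genes called higher, the 290 called lower and all 18197 genes tested, with bands for the 25th to 75th percentile of genes; black solid lines are control and orange dotted lines IL-15. The genes called higher reach 1.27 in control and 0.79 with IL-15 at 48 h, the genes called lower -1.63 and -1.25, and all genes stay near 0.

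The test of 12 h against 0 h in control culture shares no library with the step described here. In it 4797 genes were higher (26.4%) and 4526 were lower (24.9%) at 12 h by edgeR. Of the 290 genes that fell in the second day, 149 had already been lower at 12 h (51.4%) and 43 had been higher (14.8%). Of the 386 genes that rose, 99 had been higher at 12 h (25.6%), 98 lower (25.4%) and 189 neither (48.96%), shares close to those of all genes tested. Without the 3 libraries that stood apart, 42.9% of the genes that fell had been lower at 12 h, and 29.7% of those that rose.

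The classes followed different paths. The 98 genes that had first fallen and then rose had a median log2 level relative to 0 h of -0.78 at 12 h, then -0.36 at 24 h and 0.33 at 48 h. For this class, the second day took the median above the level at 0 h. The values at 24 h and 48 h are those that chose the genes. The 43 genes that first rose and then fell stood at 1.02 at 12 h, then 0.69 at 24 h and -0.11 at 48 h, so that their median came back to about the level at 0 h. The 149 genes that had fallen at both times went on down, to -1.14 at 12 h, then -1.52 at 24 h and -2.31 at 48 h.

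The 12 to 24 h step, which shares the 24 h sums, had about as many calls: 737 genes (4.05%), 459 higher and 278 lower, and 256 to 481 with 1 animal left out. Its RMS log2 change per animal was 0.399 ± 0.024 and that of the 24 to 48 h step 0.416 ± 0.059 (SD, n = 4). The steps last 12 h and 24 h. It was 0.833 ± 0.026 between 0 h and 2 h, 0.757 ± 0.017 between 2 h and 6 h and 0.384 ± 0.020 between 6 h and 12 h. The 386 genes that rose had a median log2 change of 0.86 in the 24 to 48 h step and 0.44 in the 12 to 24 h step, in which 120 were called higher and 2 lower. The 290 that fell had -0.91 and -0.36, with 61 called lower and 2 higher in the 12 to 24 h step. Among all 18197 genes tested, that step called 459 higher and 278 lower. Both groups were chosen by the 24 to 48 h step, which by itself makes their change in it the larger. The shared 24 h sums enter the 2 steps with opposite sign. The test of the difference between the 2 steps called 12 genes (0.0659%), 6 in each direction; 1096 had an unadjusted p under 0.05, and with 1 animal left out 2 to 21 genes were called.

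Of the 386 genes that rose, 75 (19.4%) had a mean under 1 CPM at each of 0, 2, 6 and 12 h, a lower share than among all genes tested (5047, or 27.7%). At least 5 CPM at 48 h was reached by 19 of the 75 and by 21 of the 5047. The median of the 19 genes was 0.0831 CPM at the start, 0.533 CPM at 12 h, 2.70 CPM at 24 h and 10.02 CPM at 48 h. Their summed level was 345, 478, 128.6 and 148 CPM at 48 h in animals 38142, 38147, 38155 and 38157, against 70.9, 99.8, 22.8 and 35.9 CPM at 24 h. All 4 animals had a several-fold higher sum at 48 h, and the first 2 had the highest sums at both times. With IL-15 the same genes summed to 79.5, 125.8, 29.5 and 72.2 CPM at 48 h. They were chosen for a high level in control culture at 48 h. In the IL-15 step 10 of the 19 were called higher as well, against 8.53% of all genes tested. The difference between the steps was called in 1 of the 19, against 3.03% of all genes tested. Without the libraries that stood apart, 20 genes met the same terms.

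Other genes were nearly lost. Of the 290 genes that fell, 47 (16.2%) had at least 5 CPM at 0 h and stood at least 10-fold lower at 48 h, against 157 of all genes tested (0.863%), a share that choosing genes for a fall raises by itself. Their median was 58.1 CPM at the start, 15.4 CPM at 12 h, 7.52 CPM at 24 h and 1.88 CPM at 48 h. They summed to 467, 532, 414 and 613 CPM at 48 h in animals 38142, 38147, 38155 and 38157, against 1552, 1942, 909 and 2154 CPM at 24 h. In control culture at 48 h their median was 1.88 CPM, beside 1.60 CPM with IL-15. Their sum was 507 ± 85.9 CPM in control culture and 737 ± 125.6 CPM with IL-15 (SD, n = 4). It was lower in control culture in each animal, but the genes were chosen for a low level there. By gene, 27 of the 47 had a lower mean with IL-15 than in control culture at 48 h. The IL-15 step called 19 of the 47 lower and 0 higher, against 5.11% and 8.53% of all genes tested. The difference between the steps was called in 2 of the 47, against 3.03% of all genes tested. Without the libraries that stood apart, 46 genes met the same terms.

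Cultures with IL-15 share no library with the control step. In them 1553 genes were higher (8.53%) and 930 lower (5.11%) at 48 h than at 24 h by edgeR, 2483 in all, with 1007 without animal 38142 and 1309 without 38155. Of the 386 genes that rose without IL-15, 32.6% were called higher with it, which is 8.11% of the 1553, and 2 genes lower. Of the 290 that fell, 77 were called lower with it (26.6%, or 8.28% of the 930) and 4 higher. The median log2 change of the genes that rose was 0.86 without and 0.39 with IL-15, and that of the genes that fell was -0.91 without and -0.36 with IL-15. The genes were chosen by the control step, which by itself makes their control values the larger. The direction without IL-15 was also that with IL-15 in 83.7% of the genes that rose and 83.1% of those that fell, against 62.8% of all genes tested.

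The difference between the steps was tested directly. It was called in 551 genes (3.03%) by edgeR, and in 236 without animal 38142, 312 without 38147 and 332 without 38155. Of these, 420 had a lower step without IL-15 and the other 23.8% a higher one. Without the 3 libraries that stood apart, 813 genes were called, 542 with a lower step without IL-15 and 271 (33.3%) with a higher one, so the second count more than doubled. In the genes with a higher step without IL-15 the median log2 step was 0.44 without and -0.35 with IL-15: 53 of them rose in control culture and 64 fell with IL-15. In the 420 genes it was -0.01 without and 0.98 with IL-15. Of these, 388 rose with IL-15 and 24 fell in control culture. These sets were chosen by the difference between the steps, so medians that lie apart follow from that choice. The 386 genes that rose in control culture held 53 with a higher and 3 with a lower step than with IL-15. The 290 that fell held 24 with a lower step and 0 with a higher one. Both groups were chosen by the control step, which is also part of the difference tested, so these splits are partly set by that choice.

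**Figure D5:**
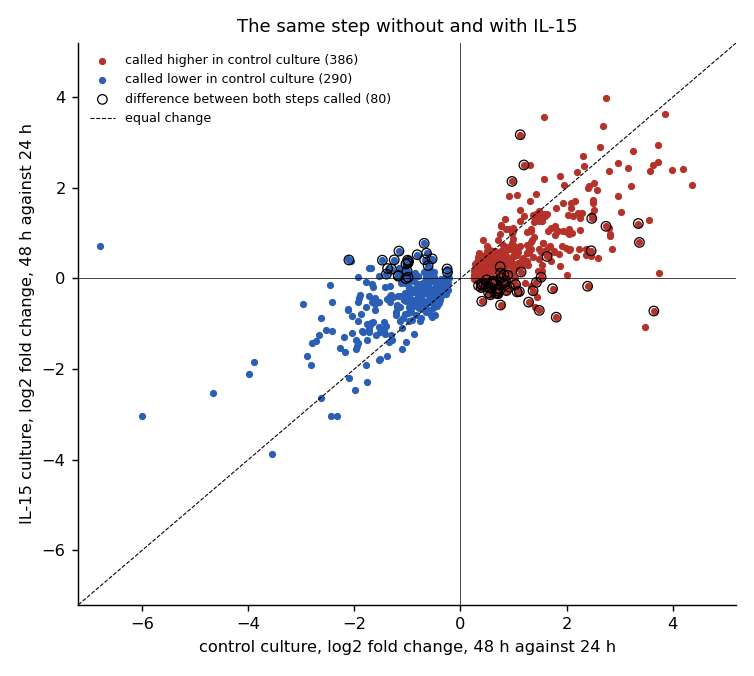
Log2 fold change at 48 h against 24 h in control culture (horizontal axis) and with IL-15 (vertical axis) for the 676 genes called in control culture, red for the 386 higher and blue for the 290 lower; black rings mark the 80 genes whose steps differed by edgeR and the dashed line marks equal change. With IL-15, 83.7% of the red and 83.1% of the blue points keep the sign of the control step.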

How the data were processed

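The authors deposited whole-number counts per gene, not normalized, in a table with cynomolgus IDs (38550 rows) and another with rhesus IDs (35432 rows). A Qiagen RNeasy Mini kit served for the RNA and a KAPA mRNA HyperPrep kit for the 132 libraries of the series, per the labels' protocols. The aligner, counter, genome build and annotation: not given in the sources used here. None of the IDs (0) matched a symbol, so the gene and marker lists could not be run.

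Sums of 3 libraries per animal and group (44 sums, 11 groups) from the cynomolgus table were fitted with edgeR 4.0.16 (R 4.3.3; TMM, filterByExpr, robust quasi-likelihood test, animal term), and p-values were adjusted over 18197 genes. CPM values are of the sums and use TMM-scaled totals. The number of genes with at least 1 CPM and the stricter filter used totals without this scaling instead. Log-CPM used a prior count of 2. Sexes were compared with limma 3.58.1. Alternatives used DESeq2 1.42.0, limma-voom, other scalings, filters and samples. The animal pairs the samples, as the labels give it: deviations of its 48 h and 24 h sums from their group means correlated across 10101 genes by 0.605 to 0.856. Of 24 pairs of sister libraries, none agreed within sampling noise (lowest chi-square per degree of freedom 6.42, genes with at least 20 counts). The edgeR p-values of the main fit measure the spread of the 44 sums around the group and animal terms, pooled over all 11 groups. They do not measure the spread of the 4 pairs in the 24 to 48 h step alone. All of these sums are from the same 4 animals. Without molecular identifiers, reads are not independent molecules. The fit was also run on counts simulated from its own means and spreads. Such counts cannot show how well the model suits animals that respond unequally.

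The rule for named genes kept those called at an adjusted p under 0.05, with at least 5 CPM at 48 h or 24 h and all 4 animals moving alike, and took 2 from each end of the log2 fold changes. The members and lists were chosen with earlier results of these data known, and the classes of near silent and nearly lost genes after their values were seen.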

Additional observations from a re-analysis of the deposited data

Results flagged for a closer look

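In groups of 4 animals, a value was listed when its gap to the nearest other animal exceeded Dixon's limit; 23 groups were checked, 3 were listed and chance lists about 1.15 (1 in 20). ENSMFAG00000032093 stood at 18.4 CPM in animal 38147 at 48 h, above the other 3 animals. ENSMFAG00000037627 rose by a log2 change of 4.70 in animal 38147, above the other 3. The RMS log2 change of animal 38157, 0.328, lay below that of the other 3.

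The step differed between cultures without and with IL-15 by edgeR's test of the difference in 551 genes: the median log2 difference, without minus with IL-15, was -1.14 in the 420 with a lower step without IL-15 and 0.85 in the others. Between the 24 to 48 h and the 12 to 24 h step in control culture it differed in 12 genes, 6 higher and 6 lower in the later step, and these steps share the 24 h sums. In the 6 with the higher later step, the median log2 change was 0.06 in the later and -3.15 in the earlier step. In the 6 with the lower later step it was -0.45 in the later and 2.20 in the earlier step. All of these genes were chosen by the differences given here, so steps that lie apart follow from that choice.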

How the results depend on the processing

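Of the 676 calls, other settings gave between 512 and 948 by scaling (RLE 698, upper quartile 688), filter (none 512, stricter 660), tool (DESeq2 948, limma-voom 742), samples (8 sums 766, 24 control sums 584), the rhesus table (757) and without the libraries that stood apart (700). The share of higher genes among them was 57.1%; it was 46.5% under the stricter filter and 49.8% to 75% with 1 animal left out, and otherwise within 10 percentage points except without the animal term. Without the animal as replicate block, the calls were 42 (85.7% higher), 67 for 24 h against 12 h, 565 for the IL-15 step, 163 for the difference without and with IL-15 and 0 for the difference between the 2 control steps (396 unadjusted, edgeR). Single libraries with an animal term gave 2635 calls, 2714 with the library number as replicate block and 2808 with the mark in the column name as a term; the 3 libraries of an animal are not independent, so these counts are too large. The stricter filter called 21 genes for the difference between the control steps. Leaving out 1 animal in turn gave 188 to 600 calls, 256 to 481 for 24 h against 12 h, 1007 to 2109 for the IL-15 step, 236 to 532 for the difference without and with IL-15 and 2 to 21 for that between control steps. Fewer samples leave fewer residual degrees of freedom; why the counts differ between animals was not tested. Of the named genes, 3 kept their call in 17 of 17 alternatives and ENSMFAG00000041687 in 15 (highest adjusted p 0.17). Under 1 CPM 1.65% of genes were called; the part of depth in this was not tested.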

Other observations

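The 20 most abundant genes took 9.65 ± 1.09% of the counts at 48 h and 8.97 ± 0.58% at 24 h (SD, n = 4 animals). The share was higher at 48 h in 3 of 4 animals, and the difference of 0.681 percentage points did not pass an exact two-sided sign-flip permutation test (p = 0.375, where 4 pairs allow no less than 0.125). Genes with at least 1 CPM numbered 12728 ± 79.4 at 48 h and 12776 ± 174 at 24 h (exact permutation p = 1); 3 of 4 animals had more at 48 h, and 38155 had 12616 at 48 h against 13027 at 24 h. These numbers of genes used totals without TMM scaling. The median SD of log2 levels between animals over 10243 genes was 0.218 at 48 h against 0.187 at 24 h. Without the libraries that stood apart this SD was 0.178 at 48 h against 0.187 at 24 h.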
